A study of Mus musculus with 14 samples.

Results

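The step from 6 h to 24 h of culture without IL-7 and with 4-hydroxytamoxifen (4OHT) was measured on microarrays in a mouse line of B cell precursors, BH1-Bcl2-Ik1ER. The comparison uses 4 of the 14 arrays of the series, 2 at each time, and sets each 24 h array against the 6 h array of the same experiment, numbered 1 or 2. All 19938 genes that have a probe set with a single gene symbol were compared, from 35556 probe sets, with the brightest probe set taken for each gene. One retrovirus in these cells supplies Bcl2, an inhibitor of apoptosis, and another supplies Ik1ER, in which Ikaros is fused to the estrogen receptor. Cells with both had been purified by flow sorting. 4OHT at 100 nM switches on the fusion. IL-7 was supplied as 8% conditioned medium of J558L cells that overexpress the mouse cytokine, and cells without IL-7 were grown without it. The other groups, also with 2 arrays each, were time 0, 6 h with IL-7 and 4OHT, 24 h with IL-7 and with or without 4OHT, and 24 h without IL-7 and without 4OHT. Each group held 1 array from each of 2 independent experiments. Every group carried both retroviruses, no cells without the fusion were measured, and all arrays come from 1 cell line. No group at 6 h without 4OHT is among the labels, so within the step longer culture, longer withdrawal and longer Ikaros activity cannot be told apart.

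IL-7 signals through its receptor, the JAK1 and JAK3 kinases and the transcription factor STAT5, and drives the division of pro-B and large pre-B cells in the bone marrow. When the signal ends, FoxO transcription factors become active, precursors leave the cell cycle, and small pre-B cells rearrange their immunoglobulin light chain genes. Ikaros, a zinc finger transcription factor encoded by Ikzf1, favours this transition, lowers MYC and surrogate light chain expression, and is often lost in B cell leukaemia.

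Levels are log2 values of the deposited table, and changes are log2 differences of 24 h minus 6 h ± SE with n = 2 arrays per group, tested with limma with the experiment as a block. Array medians over all probe sets lay between 7.23 and 7.43. Pearson's r between the arrays of each group lay between 0.9968 and 0.9982 over the 19938 genes. Of 12 B lineage markers measured, 10 lay above 7.33, the median of all values, with a mean over the markers of 11.2 to 11.3 on the 4 arrays. The recombinase genes Rag1 and Rag2 lay below it at 5.74 to 5.96 and 4.49 to 4.58. T cell, natural killer cell, myeloid, erythroid, plasma cell and stromal marker lists averaged 5.73 to 8.19 per array, with 3 of 12 T cell, 2 of 10 natural killer cell, 2 of 13 myeloid, 4 of 7 erythroid and megakaryocyte, 4 of 8 plasma cell and 3 of 11 stromal markers above 7.33 on some array. Cd3g, Ncr1, Lyz2, Jchain and Lum, single members of these lists, lay between 4.53 and 5.81. Other members lay higher, such as Lat at 7.94 to 8.82, Itgam at 7.88 to 8.46 and Sdc1 at 7.84 to 7.91. The stromal marker Col1a1 lay at 8.06 to 8.16 and the erythroid marker Klf1 at 7.53 to 7.64. Zap70, Csf2ra, Xbp1, Ell2 and Mzb1 lay between 9.93 and 11.77. Of these markers of other cell types Klrb1c, Fcgr3, Xbp1 and Mzb1 were higher at 24 h and Lat was lower, and no other of them passed. Of the 12 B lineage markers 3 were higher and 3 lower. Ikzf1 read 13.21 and 13.24 at 6 h and 13.31 and 13.38 at 24 h, and Bcl2 read 8.46 and 8.38 and then 8.41 and 8.56, with neither passing the test (limma adjusted p = 0.225 and 0.615). Ikzf1 passed after renewed quantile normalization (0.20, limma adjusted p = 0.0204). Which part of either transcript the probes read is not known here, so these values do not tell endogenous from retroviral RNA.

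Between 6 h and 24 h without IL-7 the cells lost the transcripts of cell division and DNA replication and gained those of chaperones of the endoplasmic reticulum. Of all genes 3727 passed limma's test at an adjusted p under 0.05 (18.7%), 1753 of them higher at 24 h (8.79%) and 1974 lower (9.9%). At least a 2-fold change was reached by 71 of the genes that rose and 287 of those that fell. Differences ran from -2.42 to 3.21, against a median of 0.02 over all genes. All 3727 genes moved the same way in both experiments, as did 69.3% of all genes. In bulk samples such as these, fewer cells of a kind and less RNA per cell cannot be told apart. The count was 2377 without the experiment as a block, and fell to 2150 without the 6 h array of experiment 1, to 2356 without that of experiment 2 and to 2196 without the 24 h array of experiment 1.

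The 12 largest rises were in genes of different kinds. Eqtn, which encodes a sperm acrosome protein, read 5.22 and 5.04 at 6 h and 8.79 and 7.89 at 24 h, a rise of 3.21 ± 0.27 (limma adjusted p = 2.29e-06). S1pr1, the sphingosine 1-phosphate receptor that guides lymphocytes out of tissues, went from 7.11 and 7.23 to 9.64 and 9.48, a 5.24-fold rise (2.39 ± 0.13, limma adjusted p = 7.35e-08). At both genes the lower 24 h array stood well above the higher 6 h array. At 24 h without IL-7 and without 4OHT, Eqtn read 4.77 and 4.86 and S1pr1 6.99 and 7.04, close to the 6 h arrays. Ifi209, of the interferon-inducible HIN-200 family, rose by 2.30 ± 0.17, and Btla, an inhibitory receptor of B and T cells, by 2.09 ± 0.17, from 8.16 and 7.44 to 9.93 and 9.86. Nuggc, a nuclear GTPase known from germinal centre B cells, rose by 2.03 ± 0.09 (limma adjusted p = 2.67e-08). Klrb1, a C-type lectin-like receptor gene, rose by 2.00 ± 0.31, and its experiments lay apart, at 9.03 and 8.08 before and 11.22 and 9.88 after. The remaining largest rises were in Ralgps2 (1.93 ± 0.08), an exchange factor for Ral GTPases, Sp100 (1.83 ± 0.12), a nuclear body protein, Edaradd (1.68 ± 0.12), an adaptor of the ectodysplasin receptor, Prxl2a (1.61 ± 0.24) and Ero1b (1.59 ± 0.12), an oxidase that forms disulfide bonds in the endoplasmic reticulum.

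The promoter window of Btla is shown because it is the one of the 6 windows looked up by rule (the 3 largest rises and 3 largest falls with a window: Ifi209, Btla, Klrb1, Rem2, Efhd1 and Il33) that held TGGGAA, the core letters of Ikaros binding sites, and 25.6% of all windows held them. Its capitals mark TGGGAA and an E-box, CACGTG, which 7.15% of all windows held. It is a RefSeq sequence of GRCm38.p6, written 5′ to 3′ in the direction of the gene.
Btla, chr16:45224087-45224386, plus strand: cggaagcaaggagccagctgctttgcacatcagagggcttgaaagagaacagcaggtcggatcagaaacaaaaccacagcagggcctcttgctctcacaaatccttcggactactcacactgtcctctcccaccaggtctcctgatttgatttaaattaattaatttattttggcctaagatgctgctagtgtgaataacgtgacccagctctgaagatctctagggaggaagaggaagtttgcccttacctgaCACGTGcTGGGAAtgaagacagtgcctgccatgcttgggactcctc

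Tfrc, the transferrin receptor through which cells take up iron, completed this group but followed another course. It stood at 11.40 and 11.33 at time 0, at 9.59 and 9.71 at 6 h and at 11.54 and 10.93 at 24 h. Its rise of 1.58 ± 0.14 (limma adjusted p = 4.25e-06) thus followed a fall of -1.71 from time 0 to 6 h, and the 24 h level did not pass against time 0 (-0.13, limma adjusted p = 0.552). The 2 differences share the 6 h arrays.

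The largest falls mixed cell cycle genes with surface and signalling genes. Rem2, a small GTPase that inhibits calcium channels, fell by 2.42 on the log2 scale with an SE of 0.40, and its 6 h arrays differed most, at 7.82 and 9.87 against 6.19 and 6.66 at 24 h. Efhd1, a calcium-binding mitochondrial protein, read 10.18 and 10.07 and then 7.82 and 7.83 (-2.30 ± 0.10, limma adjusted p = 2.67e-08). Pdcd1, the inhibitory receptor PD-1, went from 9.60 and 10.13 to 7.75 and 7.68 (-2.15 ± 0.17, limma adjusted p = 1.16e-06). At 24 h without either IL-7 or 4OHT, Pdcd1 stood at 9.78 and 10.00. Il33, a cytokine of the IL-1 family, fell by 2.21 on the log2 scale, and Tmem119, a transmembrane protein, by 2.20. Slc7a11, the cystine and glutamate exchanger, lay apart between the experiments, at 9.95 and 8.33 before and 7.46 and 6.52 after (-2.15 ± 0.20), and did not pass without the experiment block (limma adjusted p = 0.112). Eno3, the muscle form of the glycolytic enzyme enolase, fell by 2.00 on the log2 scale from a high level, 12.88 and 13.21 at 6 h. The cell cycle genes here were Iqgap3 (-2.14 ± 0.10), a scaffold protein of dividing cells, Fancd2 (-2.13 ± 0.14) of the Fanconi repair pathway, Kntc1 (-2.01 ± 0.11), which joins the kinetochore, and Mastl, the Greatwall kinase of mitotic entry, which fell by 2.00 on the log2 scale. At all 24 of the largest rises and falls the 6 h arrays did not overlap the 24 h arrays. These genes were picked for large changes on the same arrays, so the lack of overlap is no separate support.

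**Figure D1:**
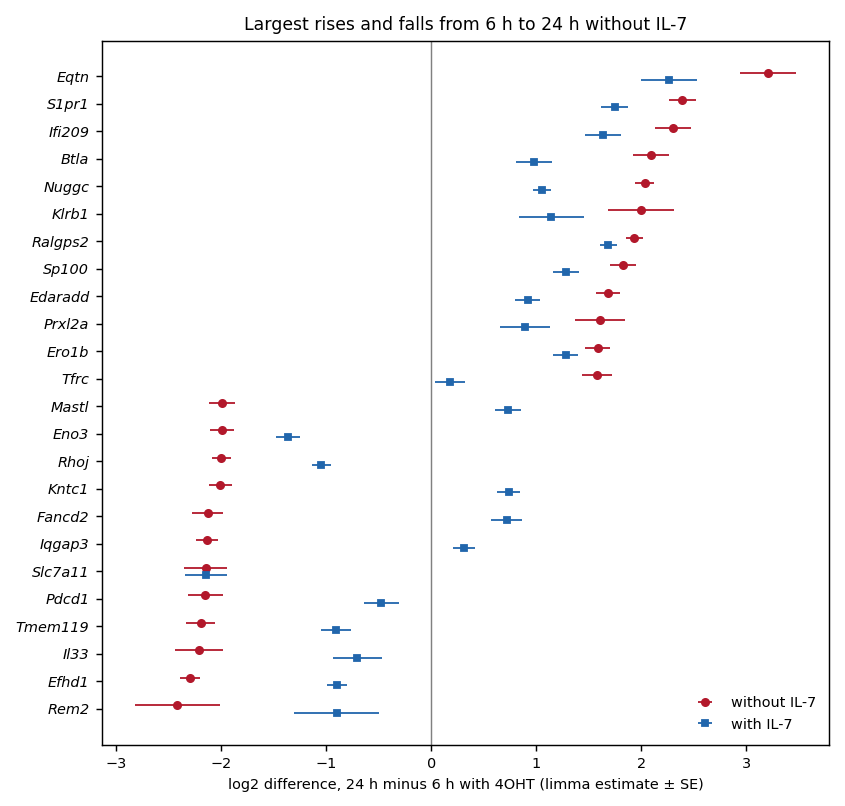
Log2 difference of 24 h minus 6 h with 4OHT (horizontal axis, limma estimate ± SE, n = 2 arrays per group) for the 12 largest rises and 12 largest falls without IL-7, with red circles for cells without IL-7 and blue squares for cells with IL-7. Fancd2, Kntc1 and Mastl lie below -1.9 without IL-7 and between 0.72 and 0.74 with it, while the 2 values of Slc7a11 coincide at -2.15.

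Mitosis genes fell without exception. All 35 measured genes of the mitosis and kinetochore list were lower at 24 h, against 9.9% of all genes, with a median change of -1.52 and values from -1.92 to -0.48. The median level of the list stood at 11.18 and 10.74 at 6 h, close to 11.02 and 10.76 at time 0, and at 9.63 and 9.09 at 24 h. Without either IL-7 or 4OHT the 24 h arrays read 9.36 and 9.14, and with IL-7 and 4OHT they read 11.26 and 11.23. Ttk, the spindle checkpoint kinase MPS1, went from 9.86 and 9.35 to 8.01 and 7.35 (-1.92 ± 0.12, limma adjusted p = 2.86e-07). Ncapg, a condensin subunit that compacts mitotic chromosomes, went from 10.79 and 10.27 to 8.84 and 8.40 (-1.91 ± 0.10). Kif2c, a motor that takes apart microtubules, and Nuf2, of the outer kinetochore, fell by 1.89 and 1.78 on the log2 scale. The lower 6 h array of each of these genes lay above its higher 24 h array. All 35 genes also passed at an adjusted p under 0.05 in every alternative fit with 2 arrays per group, the fit without the block included. Other thresholds were not applied to this list.

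Promoter windows of the 4 list genes named above are shown because they fell most of the list and differ in the short sequences that most windows of the list hold. Capitals mark, on either strand, TTTGAA (the core letters of the cell cycle homology region), CCAAT (the letters bound by NF-Y), CACGTG (the E-box bound by MYC and MAX), TGGGAA (the Ikaros core) and GTAAACA (the forkhead motif). The windows are RefSeq sequences of GRCm38.p6, written 5′ to 3′ in the direction of the gene.
Ttk, chr9:83834439-83834738, plus strand: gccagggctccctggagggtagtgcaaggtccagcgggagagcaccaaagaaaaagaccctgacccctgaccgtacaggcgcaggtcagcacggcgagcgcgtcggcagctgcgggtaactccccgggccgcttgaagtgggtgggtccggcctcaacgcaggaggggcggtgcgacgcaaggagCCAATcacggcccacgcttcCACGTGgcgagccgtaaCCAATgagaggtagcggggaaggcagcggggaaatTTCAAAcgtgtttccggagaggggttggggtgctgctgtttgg
Ncapg, chr5:45669675-45669974, plus strand: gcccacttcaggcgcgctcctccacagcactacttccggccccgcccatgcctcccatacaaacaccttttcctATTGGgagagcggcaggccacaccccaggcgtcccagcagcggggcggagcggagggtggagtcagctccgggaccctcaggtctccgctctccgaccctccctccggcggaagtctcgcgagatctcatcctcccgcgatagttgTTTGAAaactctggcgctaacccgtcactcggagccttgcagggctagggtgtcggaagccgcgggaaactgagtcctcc
Kif2c, chr4:117178723-117179022, minus strand: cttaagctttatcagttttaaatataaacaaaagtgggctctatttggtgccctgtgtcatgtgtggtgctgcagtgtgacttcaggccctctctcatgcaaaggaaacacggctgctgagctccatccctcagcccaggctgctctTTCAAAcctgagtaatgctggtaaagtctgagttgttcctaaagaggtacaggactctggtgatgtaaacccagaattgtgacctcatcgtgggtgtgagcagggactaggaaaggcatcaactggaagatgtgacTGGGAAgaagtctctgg
Nuf2, chr1:169531415-169531714, minus strand: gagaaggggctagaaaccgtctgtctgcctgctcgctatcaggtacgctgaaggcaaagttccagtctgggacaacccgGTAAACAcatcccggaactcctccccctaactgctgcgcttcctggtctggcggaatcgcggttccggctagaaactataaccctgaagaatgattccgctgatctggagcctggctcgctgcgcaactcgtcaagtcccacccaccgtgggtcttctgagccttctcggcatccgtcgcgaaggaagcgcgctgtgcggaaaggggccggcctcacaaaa
Ttk and Ncapg held both TTTGAA and CCAAT, Kif2c held TTTGAA without CCAAT, and Nuf2 held neither.
Of the 27 mitosis list genes with a window in the RefSeq table, 20 held TTTGAA (74.1%), as did 17.9% of all 32851 windows. CCAAT was also held by 20 of the 27, against 37.4% of all windows. Counting only the first window of each gene, as the lists do, 15.2% of 15614 compared genes held TTTGAA and 38.2% held CCAAT. Among genes that fell, 17.2% of 1610 windows held TTTGAA and 45.8% held CCAAT, and among genes that rose 9.24% and 38.2% of 1407 did. These matches describe letters and are not binding sites.

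DNA replication genes fell with them, and of all genes 9.9% fell. Of 31 DNA polymerase, clamp and licensing genes, 27 were lower and none higher, with a median of -0.76, and of 12 replicative helicase genes 11 were lower, with a median of -0.90. The polymerase list had median levels of 10.34 and 10.00 at 6 h and of 9.43 and 9.38 at 24 h, and of 9.66 and 9.69 at 24 h with neither IL-7 nor 4OHT. Pole, the catalytic subunit of the leading strand polymerase, went from 10.65 and 10.26 to 8.71 and 8.54 (-1.83 ± 0.12, limma adjusted p = 2.44e-07). Ticrr, which loads the helicase activator at origins, Pola1, which starts each new strand, and Lig1, which joins Okazaki fragments, fell by 1.81, 1.72 and 1.69 on the log2 scale. In the helicase, Gins1 (-1.50 ± 0.12), Cdc45 (-1.44 ± 0.11), Mcm10 (-1.37 ± 0.12) and Mcm5 (-1.32 ± 0.12) fell most. Cdc45 and the GINS complex travel with the MCM ring to form the active helicase. All 8 helicase gene windows in the RefSeq table held CCAAT, as did 13 of 26 windows of the polymerase list (50%) and 38.2% of the genes compared. TTTGAA was held by 3 of the 8 helicase windows and 3 of the 26 polymerase windows (11.5%), against 15.2% of the genes compared.

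Repair, precursor and chromatin genes of S phase moved the same way, and of all genes 9.9% fell and 8.79% rose. Of 23 Fanconi and homologous recombination genes 20 were lower and none higher (median -0.81), led by Fancd2, the nuclease gene Exo1 (-1.75 ± 0.14), Rad54b (-1.71 ± 0.09) and Rad51ap1 (-1.66 ± 0.10). Of 25 nucleotide synthesis genes 19 were lower and 1 higher, or 13 lower and none higher without the experiment block. Tyms, which makes thymidylate, went from 10.55 and 10.31 to 8.30 and 8.61 (-1.98 ± 0.15), and the ribonucleotide reductase genes Rrm2 and Rrm1 fell by 1.69 and 1.22. Of 27 replication-dependent histone genes 17 were lower and none higher (median -0.43), such as H1f5 (-1.34 ± 0.09) and H2ac4 (-1.22 ± 0.11). Only 9 histone genes passed without the 6 h array of experiment 1, and 10 without the 24 h array of experiment 1. Histone genes are near-identical copies, so their probe sets may share targets.

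The regulators of the G1 to S transition fell in part, while 9.9% of all genes fell and 8.79% rose. All 5 D-type cyclin and partner kinase genes were lower at 24 h, and of 14 E2F and cyclin E genes 9 were lower and 2 higher. The D-type cyclins pair with CDK4 and CDK6 to release E2F factors from the RB family. Ccnd3, the D cyclin on which pre-B cell expansion depends, read 11.41 and 11.36 at 6 h and 10.95 and 10.85 at 24 h (-0.48 ± 0.06, limma adjusted p = 7.75e-05). Ccnd2 went from 9.10 and 9.43 to 8.40 and 8.96 (-0.58 ± 0.09), after a change of -1.65 from time 0 to 6 h, and did not pass without the block (limma adjusted p = 0.0727). Ccnd1 and Cdk6 fell by 0.76 and 0.51. Among the E2F list, the repressor genes E2f8 and E2f7 fell by 1.64 and 1.45, and the cyclin genes Ccne1 and Ccne2 by 1.41 and 1.18. Among 9 CDK inhibitor and pocket protein genes 2 were higher and 3 lower, or 1 and 1 without the block. Leaving out the 6 h or the 24 h array of experiment 1 left 3 of these 5. Rbl1, which encodes the RB relative p107, fell by 1.05, and Rb1 rose by 0.41. Cdkn1b, which encodes the inhibitor p27, read 11.80 and 11.63 and then 12.13 and 11.94 (0.32 ± 0.08, limma adjusted p = 0.0114). It did not pass without the block (limma adjusted p = 0.0603), without the 6 h array of experiment 2 (0.102) or without the 24 h array of experiment 1 (0.114).

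Myc continued to fall. It read 12.55 and 12.49 at time 0, 11.31 and 10.92 at 6 h and 9.31 and 9.43 at 24 h, so that the later step of -1.74 ± 0.10 (limma adjusted p = 8.91e-08) came on top of -1.41 ± 0.10 over the first 6 h. The 2 steps share the 6 h arrays. At 24 h without IL-7 and without 4OHT Myc stood at 12.10 and 12.05. Mlxip (0.93 ± 0.07) and Max (0.37 ± 0.06), dimer partners in the MYC and MAX network, rose, and the antagonist gene Mxd3 (-0.99 ± 0.12) fell. Of 12 genes of this network 5 rose and 3 fell, against 8.79% and 9.9% of all genes. Between 4 and 5 of these 8 passed when any 1 of the 4 arrays was left out.

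Genes for making ribosomes had fallen by 6 h, and fewer of them passed in the later step. Of 46 ribosome biogenesis and RNA polymerase I genes 43 were lower at 6 h than at time 0 (median -0.93, background 11.3% lower). From 6 h to 24 h 9 were lower and 3 higher, with a median of -0.11, against 9.9% and 8.79% of all genes. The median level of the list stood at 10.53 and 10.25 at time 0, 9.40 and 9.29 at 6 h and 9.34 and 9.21 at 24 h, so the 6 h and 24 h arrays overlapped. Without 4OHT and IL-7 it stood at 10.05 and 9.98 at 24 h. Polr1b, a subunit of RNA polymerase I, fell in both steps, by 1.57 to 6 h and by 0.55 ± 0.08 from 6 h to 24 h. Without the block 2 genes were lower and 2 higher, and 3 to 7 of the 12 passed when any 1 of the 4 arrays was left out.

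**Figure D2:**
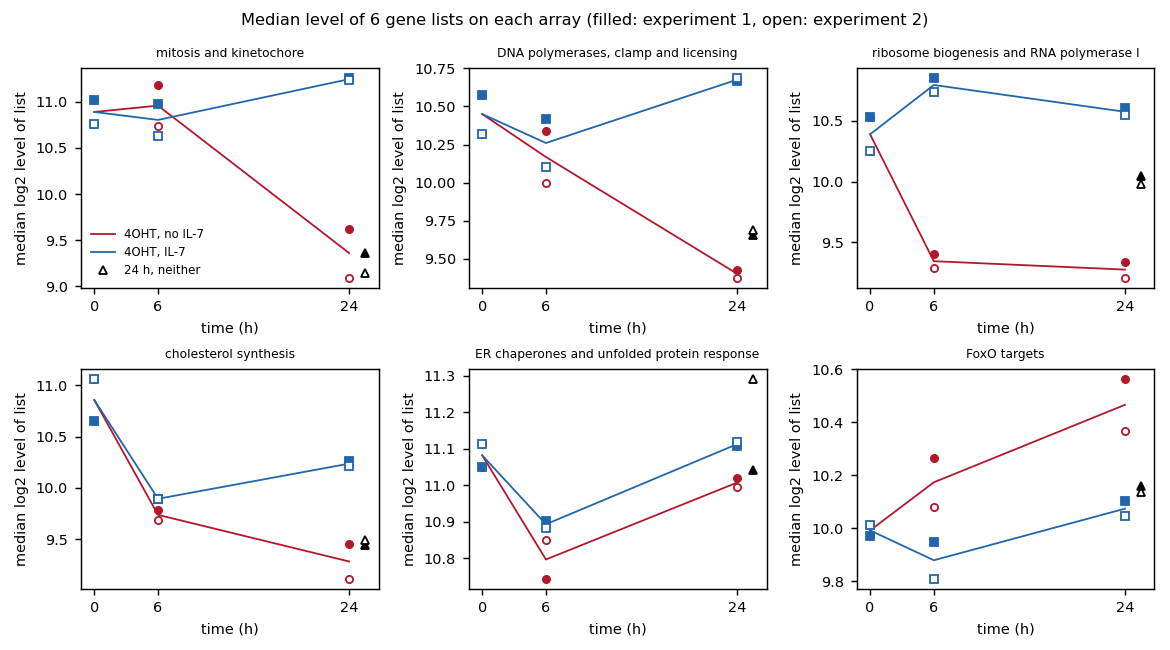
Median log2 level of 6 gene lists (vertical axes, with ranges that differ between panels) against time in culture in hours, for each array, with filled symbols for experiment 1 and open symbols for experiment 2. Red circles are cells with 4OHT and without IL-7, blue squares are cells with 4OHT and IL-7, both drawn from the same time 0 arrays, lines join the means, and black triangles set beside 24 h are cells with neither IL-7 nor 4OHT. The mitosis list stays near its time 0 level at 6 h and drops to 9.63 and 9.09 at 24 h, while the ribosome list is already at 9.40 and 9.29 at 6 h.

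Cholesterol synthesis genes fell further, fatty acid synthesis genes were divided, and more glycolysis genes fell than rose. From 6 h to 24 h 9.9% of all genes fell and 8.79% rose. Of 20 cholesterol synthesis genes 18 were lower at 6 h than at time 0, and 11 fell and none rose from 6 h to 24 h (median -0.34), such as Stard4 (-0.88 ± 0.10), a sterol carrier, Idi1 (-0.79 ± 0.11) and Sqle (-0.66 ± 0.12), enzymes of the pathway. Leaving out the 6 h or the 24 h array of experiment 2 left 5 of the 11. Fads2, a desaturase of polyunsaturated fatty acids, went from 10.49 and 10.71 to 8.52 and 8.85 (-1.91 ± 0.09, limma adjusted p = 4.43e-08), and Fads1, its partner, fell by 0.78. In the whole fatty acid synthesis list 5 of 17 genes fell and 3 rose, with a median of -0.0021, and Mid1ip1, an activator of acetyl-CoA carboxylase, rose by 0.58 ± 0.12. Without the block 4 fell and 1 rose, and 4 or 5 of the 8 passed when any 1 of the 4 arrays was left out. Of 22 glycolysis and lactate transport genes 9 were lower and 1 higher, or 5 and none without the block. Glycolysis calls numbered 6 without the 6 h array of experiment 2, and 6 without the 24 h array of experiment 1. Aldoc and Pgk1, which encode an aldolase and phosphoglycerate kinase, fell by 1.01 and 0.79. Of 28 ATF4 and amino acid response genes 7 were lower and none higher, with Asns, asparagine synthetase, going from 9.70 and 10.16 to 8.78 and 9.07 (-1.01 ± 0.18). Only 3 or 4 of these 7 passed without either 6 h array or without the 24 h array of experiment 1.

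Genes of protein folding in the endoplasmic reticulum came back up. Of 21 genes for its chaperones and the unfolded protein response 16 rose and none fell (background 8.79% higher), with a median of 0.37, after 13 had been lower at 6 h than at time 0. The list stood at 11.05 and 11.11 at time 0, 10.74 and 10.85 at 6 h, and 11.02 and 10.99 at 24 h, and 24 h cells with neither IL-7 nor 4OHT were at 11.04 and 11.29. Hspa5, the main chaperone BiP of this compartment, went from 11.22 and 11.65 to 12.19 and 12.06 (0.69 ± 0.11, limma adjusted p = 0.000816). Eif2ak3, the stress sensor kinase PERK, rose by 0.83 ± 0.14, Pdia6, a disulfide isomerase, by 0.74 ± 0.09, and Calr, the calcium-binding chaperone calreticulin, by 0.67 ± 0.10. The rise of Hspa5 was 0.97 in experiment 1 and 0.41 in experiment 2. Only 6 genes of the list passed without the 6 h array of experiment 1, and 6 without the 24 h array of experiment 1, against 13 and 15 without those of experiment 2.

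Windows of 2 of these genes are shown to set beside those of the mitosis genes, because the lists differ in TTTGAA. Of 18 windows of this list 16 held CCAAT (88.9%) and none held TTTGAA, against 38.2% and 15.2% of the genes compared. Capitals mark CCAAT on either strand, and the source and direction are as above.
Hspa5, chr2:34771840-34772139, plus strand: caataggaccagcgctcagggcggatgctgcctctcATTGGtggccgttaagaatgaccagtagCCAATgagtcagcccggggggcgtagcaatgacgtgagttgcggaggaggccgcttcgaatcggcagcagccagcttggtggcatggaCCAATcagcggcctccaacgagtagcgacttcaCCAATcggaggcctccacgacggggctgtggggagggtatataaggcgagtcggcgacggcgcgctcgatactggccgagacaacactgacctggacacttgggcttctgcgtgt
Pdia6, chr12:17266339-17266638, plus strand: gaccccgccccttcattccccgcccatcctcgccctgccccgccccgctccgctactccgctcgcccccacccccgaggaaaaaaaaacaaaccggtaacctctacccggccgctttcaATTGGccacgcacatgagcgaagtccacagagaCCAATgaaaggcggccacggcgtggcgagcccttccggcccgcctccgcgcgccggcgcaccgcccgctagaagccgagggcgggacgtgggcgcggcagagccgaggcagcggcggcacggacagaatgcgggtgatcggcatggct

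Many FoxO and p53 target genes rose from 6 h to 24 h, while 8.79% of all genes rose and 9.9% fell. Of 26 FoxO targets 14 rose and 1 fell, with a median of 0.29, after 14 had been higher at 6 h than at time 0 (background 8.75% higher). Foxo1, itself on the list, went from 10.27 and 10.18 to 11.42 and 11.17 (1.07 ± 0.10, limma adjusted p = 6.71e-06), S1pr1 rose as above, and Trib2, a pseudokinase gene, rose by 0.73 ± 0.07. Tnfsf10, the death ligand TRAIL, was the member that fell, from 9.88 and 9.87 to 8.56 and 8.53 (-1.33 ± 0.10). Il7r, which encodes the IL-7 receptor chain, read 13.14 and 13.15 and then 13.24 and 13.25 and did not pass (limma adjusted p = 0.478). Of 20 p53 targets 9 rose and none fell (median 0.23), including the growth arrest genes Gadd45a (0.60 ± 0.10) and Gadd45b (0.56 ± 0.08) and the stress gene Sesn1 (0.60 ± 0.11). Gadd45a and Sesn1 stand in both lists. Without the 24 h array of experiment 1, 7 FoxO targets rose, and p53 targets that rose numbered 4 without the 6 h or without the 24 h array of experiment 1. Of 14 BCL2 family genes 3 rose and 1 fell, or 2 and none without the block. Bcl2l1, which encodes the survival protein BCL-XL, went from 9.11 and 9.02 to 10.44 and 10.02 (1.17 ± 0.12, limma adjusted p = 1.09e-05). The death genes Bcl2l11, which encodes BIM, and Bbc3, which encodes PUMA, both rose by 0.27, and Bak1, another death gene, fell by 0.26. Of these 4 genes 1 passed without the 6 h or without the 24 h array of experiment 1, and 2 passed without the 6 h array of experiment 2.

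**Figure D3:**
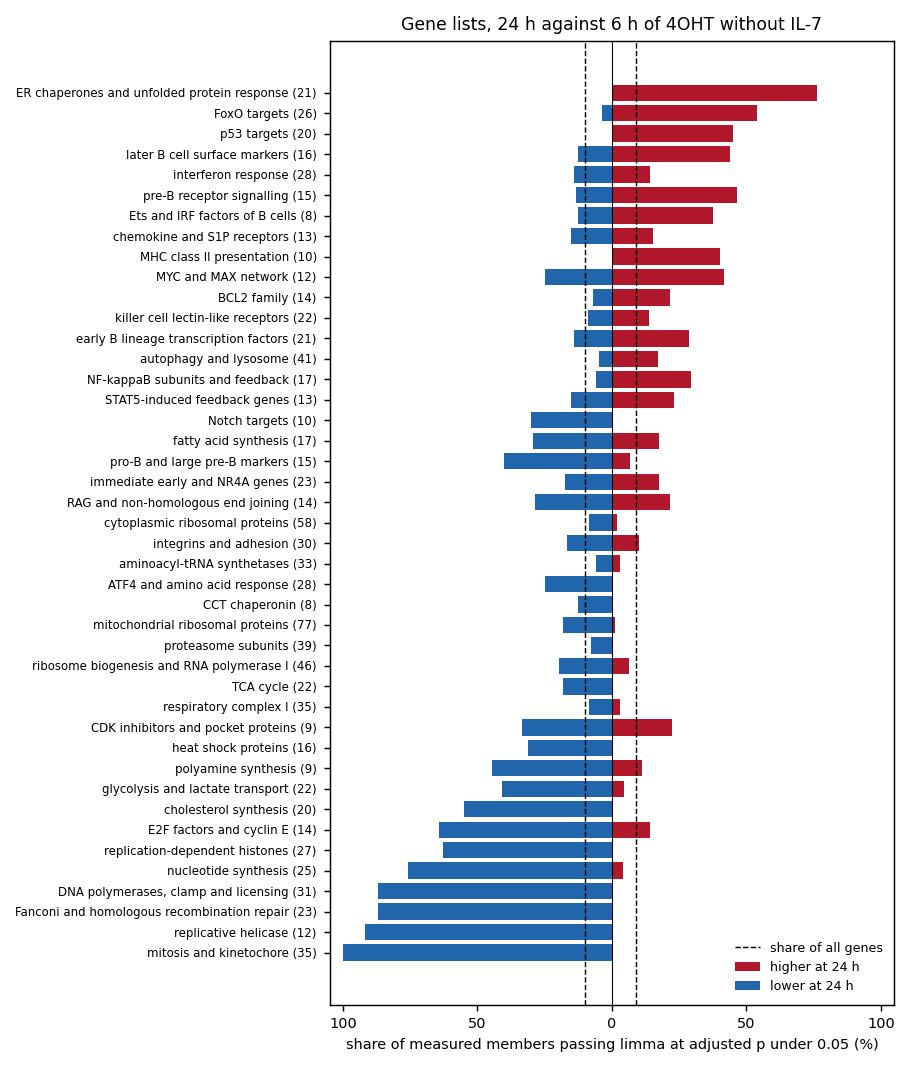
Share of the measured members of each gene list that passed limma's test (horizontal axis, in percent), with red bars to the right for genes higher at 24 h and blue bars to the left for genes lower at 24 h, for lists of at least 8 measured genes, whose number stands in brackets. Dashed lines mark 8.79% and 9.9%, the shares of all genes that rose and fell, and lists are ordered by median change, from mitosis genes (35 of 35 lower) at the bottom to endoplasmic reticulum chaperones (16 of 21 higher) at the top.

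Some B cell transcription factors and signalling genes rose, and of all genes 8.79% rose and 9.9% fell. Most of the early B lineage factors did not pass. Among 21 early B lineage factors 6 rose and 3 fell, with a median of 0.06, and the rises were led by Pou2f2, which encodes OCT2, from 8.34 and 8.36 to 9.48 and 9.44 (1.11 ± 0.09, limma adjusted p = 1.19e-06). Tcf3, which encodes the E proteins E12 and E47, rose by 0.81 ± 0.06, and Pax5, the factor that keeps B cell identity, by 0.44. Of 8 Ets and IRF factor genes 3 rose and 1 fell. Spib went from 11.43 and 11.49 to 12.66 and 12.65 (1.20 ± 0.08), its relative Spi1, which encodes PU.1, rose by 0.70 ± 0.06, and Etv6 fell by 0.54. Spib stood at 10.47 and 10.72 at 24 h with neither IL-7 nor 4OHT.

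The pre-B receptor is made of an immunoglobulin heavy chain, the surrogate light chain of VPREB and lambda 5 proteins, and the signalling chains CD79A and CD79B. Vpreb1 went from 10.56 and 10.66 to 9.79 and 9.98 (-0.73 ± 0.07, limma adjusted p = 6.71e-06), and Vpreb2 fell by 0.55. Igll1, which encodes lambda 5, read 13.70 and 13.77 and then 13.43 and 13.54 (-0.25 ± 0.06, limma adjusted p = 0.0101). Its call ended after quantile normalization (limma adjusted p = 0.0548) and without the 6 h array of experiment 1 (0.059), that of experiment 2 (0.0833) or the 24 h array of experiment 1 (0.117). The signalling chains moved the other way, with Cd79a higher by 0.55 ± 0.08 and Cd79b by 0.32 ± 0.06. Of 15 pre-B receptor signalling genes 7 rose and 2 fell, against 8.79% and 9.9% of all genes. The kinase genes Syk (0.65 ± 0.09) and Prkcb (1.03 ± 0.09) and the inhibitory receptor gene Cd22 (0.60 ± 0.07) were among the rises. Bank1, an adaptor, rose by 0.68 at levels of 4.99 to 5.71, below the median of all values.

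Later surface markers and recombination genes were divided, and of all genes 8.79% rose and 9.9% fell. Of 16 later B cell surface markers 7 rose and 2 fell (5 and none without the block), such as Fcgr2b (0.59 ± 0.08), the inhibitory Fc receptor. Of 15 markers of earlier stages, pro-B and large pre-B cells, 6 fell and 1 rose, led by Spn, which encodes CD43, from 9.83 and 9.86 to 8.68 and 8.71 (-1.15 ± 0.08, limma adjusted p = 3.14e-07). Later markers that passed numbered 5 without the 6 h array of either experiment and 4 without the 24 h array of experiment 2, and pro-B markers 2 without the 6 h array of experiment 1, 3 without the 24 h array of experiment 1 and 4 without that of experiment 2. Of 14 genes of RAG recombination and end joining 3 rose and 4 fell. Polm, a polymerase that fills ends during light chain joining, rose by 0.94 ± 0.09 and Lig4, the ligase of end joining, by 0.60 ± 0.09. Hmgb2, a chromatin protein that aids RAG and is also abundant in dividing cells, fell by 1.11 ± 0.10. Rag1 and Rag2 did not pass (limma adjusted p = 0.126 and 0.837).

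Guanylate-binding protein genes, a family induced by interferon, recovered a part of an early loss. Gbp4 read 10.25 and 9.54 at time 0, 6.91 and 7.12 at 6 h and 7.90 and 8.48 at 24 h, a late rise of 1.17 ± 0.20 (limma adjusted p = 0.00106). Gbp8 rose by 0.50 ± 0.07, and with the block 4 of 7 members rose and none fell, against 8.79% and 9.9% of all genes. Gbp8 did not pass without the block (limma adjusted p = 0.0752). All 4 of these genes stayed below time 0 at 24 h, Gbp4 by -1.70 and Gbp8 by -2.23. At 24 h with neither IL-7 nor 4OHT Gbp4 read 9.96 and 9.82. Without the 6 h array of experiment 1 only 2 of the 7 passed.

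MicroRNA genes of the miR-181 family, which is prominent in lymphoid precursors, included the only ones of 300 microRNA genes to pass with a change of at least 1 on the log2 scale. They were picked after their values were seen, and the probe sets read the microRNA gene or its precursor, not the mature RNA. The mature sequences are shown because every miR-181 gene shares 1 seed (bases 2 to 8, capitals). They are RefSeq sequences of GRCm38.p6.
mmu-miR-181a-5p: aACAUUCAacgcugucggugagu
mmu-miR-181b-5p: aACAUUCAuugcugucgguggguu
Mir181b-2 read 9.21 and 10.46 at 6 h and 7.84 and 8.21 at 24 h (-1.81 ± 0.18, limma adjusted p = 9.13e-06), and its neighbour Mir181a-2, also on chromosome 2, 8.09 and 9.11 and then 7.50 and 7.56 (-1.07 ± 0.17, limma adjusted p = 0.000685). Both genes had lower values at 24 h in each experiment, with no overlap between the times. As they were picked for this change, that is no separate support. From time 0 to 6 h Mir181b-2 had risen by 0.92 and Mir181a-2 by 0.81 (limma adjusted p = 0.00209 and 0.00464), and these steps share the 6 h arrays. In the later step the copies on chromosome 1 moved less, Mir181a-1 by -0.51 ± 0.11 and Mir181b-1 by -0.23 ± 0.11 (limma adjusted p = 0.188). These copies had risen by 1.25 and 1.01 from time 0 to 6 h. Mir181c and Mir181d changed by -0.01 and -0.07 and did not pass. In all, 8 of the 300 microRNA genes were higher and 7 lower, shares below the 8.79% and 9.9% of all genes. At 24 h with neither IL-7 nor 4OHT Mir181b-2 stood at 9.48 and 9.78. With IL-7 and 4OHT the same step was -1.36 for Mir181b-2 (limma adjusted p = 0.000448) and -0.85 for Mir181a-2 (0.00751), and the difference between the conditions did not pass (limma adjusted p = 0.331 and 0.686).

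With IL-7 kept, the same time step under 4OHT called fewer genes and took most mitosis and replication genes the other way. From 6 h to 24 h with IL-7, 1819 genes passed (9.12%), 912 higher (4.57%) and 907 lower (4.55%), and 37 rose and 34 fell by at least 2-fold. The 2 steps share no array. Both called 1112 genes, which are 29.8% of those called without IL-7 and 61.1% of those called with it, and 700 of these moved the same way. Of the other 412, 358 were lower without IL-7 and higher with it, and 54 the reverse. Both steps take each gene's SE from 1 fit.

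Mitosis genes rose at 32 of 35 with IL-7 (median 0.47), DNA polymerase and licensing genes at 27 of 31 (median 0.56) and Fanconi and recombination genes at 17 of 23, with none lower. With IL-7 4.57% of all genes rose and 4.55% fell. Other cell cycle lists were divided: of 5 D-type cyclin and kinase genes 1 rose and 2 fell with IL-7 (median -0.22), and of 25 nucleotide synthesis genes 6 rose and 1 fell (median -0.02). Kntc1 read 9.47 and 9.04 at 6 h and 9.98 and 10.01 at 24 h with IL-7, a rise of 0.74 ± 0.11, against a fall of 2.01 without IL-7. Its 24 h arrays thus lay above the 6 h arrays in one condition and below them in the other. The difference between the steps was itself tested and passed at 1972 genes (9.89%), 779 of them positive (3.91%) and 1193 negative (5.98%). All 35 mitosis genes, 30 of 31 polymerase and licensing genes and 12 of 12 helicase genes were among the negative ones. Without the block 729 genes passed with IL-7 and 998 in the difference. With 1 array left out these counts lay between 894 and 962 with IL-7, and the difference fell to 1164 without the 6 h array of experiment 1 cultured without IL-7, to 1292 without the 6 h array of experiment 2 cultured with IL-7 and to 1224 without the 24 h array of experiment 2 cultured with IL-7.

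The largest negative differences were in Fancd2 (-2.85 ± 0.20), Shcbp1 (-2.77 ± 0.16), a midbody protein, Ncapg2 (-2.77 ± 0.15), a condensin subunit, Kntc1 (-2.75 ± 0.15), Mastl (-2.73 ± 0.16) and the checkpoint kinase gene Chek1 (-2.70 ± 0.18). The largest positive differences came from falls with IL-7 at some genes and from rises without it at others. Cish, a feedback inhibitor that STAT5 induces, read 7.63 and 7.82 at 6 h and 7.55 and 7.51 at 24 h without IL-7, which did not pass, and 10.76 and 10.67 and then 8.78 and 8.57 with IL-7, a fall of 2.04 on the log2 scale (difference 1.85 ± 0.12, limma adjusted p = 3.71e-07). Sema6d, a semaphorin gene, and Fam135b likewise did not pass without IL-7 (0.24 and 0.02) and fell by 1.26 and 1.22 with it. Camk2d, a calcium-dependent kinase gene, rose by 0.76 without IL-7 and fell by 0.58 with it. Pcp4, a calmodulin regulator, rose by 1.48 without IL-7 and did not pass with it (-0.28), and for Tfrc the difference was 1.40 ± 0.20.

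**Figure D4:**
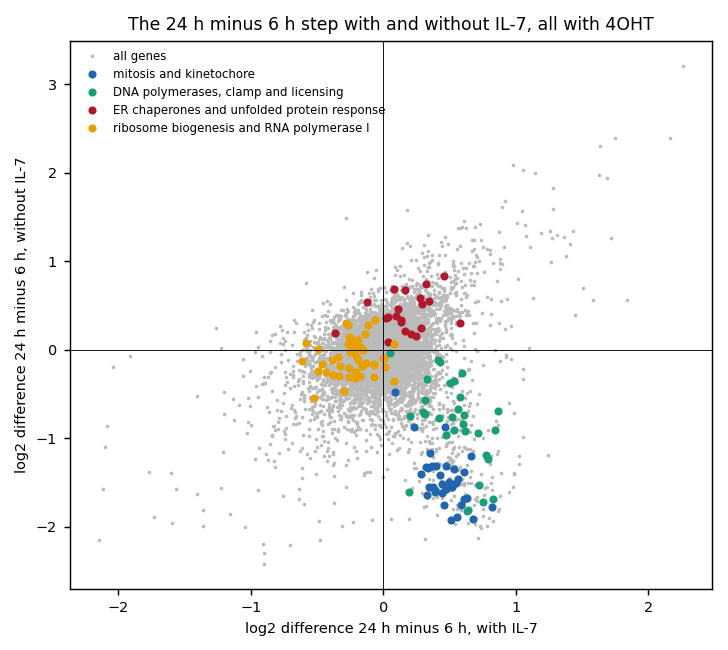
Log2 difference of 24 h minus 6 h with 4OHT for every gene, without IL-7 (vertical axis) against with IL-7 (horizontal axis), from limma's fit, with 1 grey dot per gene and coloured dots for 4 lists. Mitosis genes lie below -0.4 without IL-7 and at a median of 0.47 with it, while endoplasmic reticulum chaperones lie above 0 without IL-7.

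Some changes were common to both conditions, in whole or in part. Of 26 FoxO targets 9 rose and 1 fell with IL-7 (median 0.20). Their difference between the steps passed as positive at 4 and as negative at 2. Of 21 endoplasmic reticulum chaperone and unfolded protein response genes 4 rose with IL-7 and none fell (median 0.16). Their difference passed as positive at 3 and as negative at none. Of all genes 4.57% rose with IL-7, and the difference was positive at 3.91%. S1pr1 rose by 1.75 ± 0.13 with IL-7, from 7.04 and 6.91 to 8.94 and 8.51, Spib by 1.41, Ralgps2 by 1.69 and Tcf3 by 0.56, and Slc7a11 fell by 2.15. The difference between the steps did not pass at Spib, Ralgps2, Tcf3 or Slc7a11 (limma adjusted p = 0.311, 0.221, 0.101 and 0.996). It passed at S1pr1 with the block (0.64 ± 0.18, limma adjusted p = 0.0401) and not without it (0.0823), and it passed in 1 of the 8 fits that left out 1 array. Myc fell by 0.60 ± 0.10 with IL-7, less than without it (difference -1.14 ± 0.14, limma adjusted p = 8.99e-05), and at 24 h with IL-7 and 4OHT it still read 12.63 and 12.66. Ccnd3 rose by 0.51 with IL-7 (difference -0.99 ± 0.09). Bcl6, a repressor gene that IL-7 holds down, read 10.27 and 10.14 at 6 h and 10.06 and 9.90 at 24 h without IL-7, which did not pass (limma adjusted p = 0.0575), and rose from 7.74 and 7.71 to 8.74 and 8.82 with IL-7. It passed as lower without IL-7 after quantile normalization (-0.24, limma adjusted p = 0.0285) and without dim genes (-0.22, limma adjusted p = 0.0329).

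**Figure D5:**
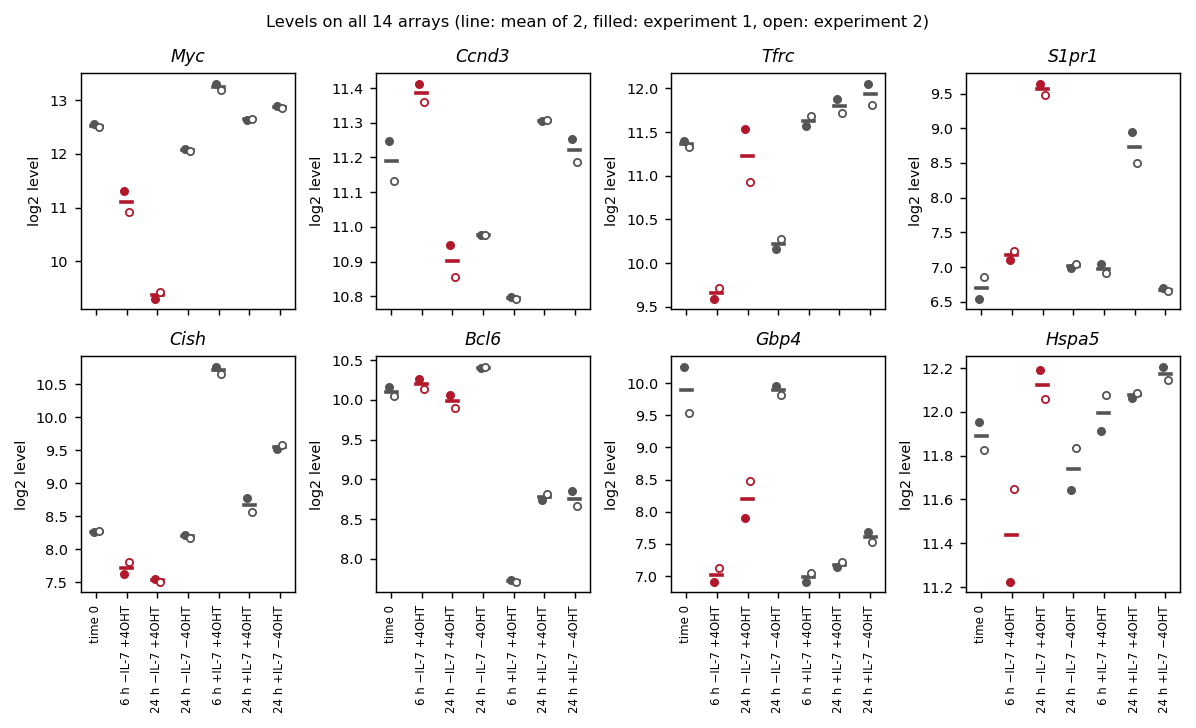
Log2 level (vertical axes, with ranges that differ between panels) of 8 genes on all 14 arrays in the 7 groups, with filled circles for experiment 1, open circles for experiment 2 and a line at the mean of both. The arrays of the comparison, 6 h and 24 h without IL-7 with 4OHT, are red. Myc falls from 11.31 and 10.92 to 9.31 and 9.43 between them, S1pr1 rises to 9.64 and 9.48, and Cish is low in both and high at 6 h with IL-7 (10.76 and 10.67).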

How the data were processed

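RNA of 14 samples was hybridised to 1 microarray each. Per the labels' protocols, 150 ng of RNA were amplified and labelled with whole transcript kits from Ambion and Affymetrix. The deposited log2 values were made by the authors with RMA in Affymetrix Expression Console 1.1, per the submitters' processing notes. The genome build is not given in the sources used here. RMA in its usual form equalises probe intensities between arrays, so values are relative and a change shared by most genes may not be seen.

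Of 35556 probe sets 21789 had 1 gene symbol in the platform annotation, 1621 had several and 12146 had none there, and genes with several probe sets (999) were read from the brightest. The 14 arrays were fitted in 1 linear model with 7 group means and the experiment as a block (R 4.3.3, limma 3.58.1), with Benjamini-Hochberg adjustment over 19938 genes and a threshold of 0.05. No filter on dim genes was used. The fit was tested on simulated data. The block follows the pairing by experiment. Deviations of same-numbered arrays correlated at 0.124 to 0.631 in all 21 pairs of groups, and at 0.549 between the compared groups. The labels call the experiments independent, and p-values measure the spread between these arrays, whose number limits the precision.

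The genes named are the 12 largest rises and 12 largest falls that passed, moved alike in each experiment and exceeded the median of all values in the higher group, the 6 largest of each sign in the difference between the steps with and without IL-7, up to 4 passing members of each list, and a fixed set of genes of IL-7 and Ikaros biology. Predicted genes, receptor segments and small RNAs were left out of the largest changes. Pax5 and the microRNA genes were named after their values were seen, as were the Hspa5 and Pdia6 windows and those of the mitosis genes. The comparison, members and lists were chosen with earlier results of these data known. Promoter and microRNA sequences come from RefSeq tables of GRCm38.p6, searched on both strands for the Ikaros core, the E-box, the STAT motif TTCNNNGAA, the forkhead motif, the cell cycle homology core and CCAAT. The alternatives were no block, fewer groups, quantile normalization, no dim genes, another prior, the mean of probe sets, other thresholds and leaving out each array.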

Additional observations from a re-analysis of the deposited data

Results flagged for a closer look

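The step from 6 h to 24 h with 4OHT differed between cells without and with IL-7 at 1972 genes by limma's test of the difference itself. Each value below is the log2 step without IL-7 minus the step with IL-7, with 2 arrays in each of the 4 groups, and both experiments gave the sign printed. No explanation was tested.

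Cell cycle genes had the largest negative values, with Fancd2 at -2.85, Shcbp1 and Ncapg2 at -2.77 each, Kntc1 at -2.75, Mastl at -2.73, Chek1 at -2.70 and Iqgap3 at -2.45. Surface, signalling and metabolic genes with negative values were Pdcd1 at -1.68, Il33 at -1.51, Efhd1 at -1.40, Tmem119 at -1.29, Rhoj at -0.95 and Eno3 at -0.64. Among regulators, Bcl6 stood at -1.27, Myc at -1.14 and Ccnd3 at -0.99.

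Positive values were found at Cish (1.85), Pcp4 (1.77), Sema6d (1.50), Tfrc (1.40), Camk2d (1.34), Fam135b (1.24), Btla (1.12), Nuggc (0.98), Edaradd (0.76) and S1pr1 (0.64). S1pr1, Edaradd and Eno3 did not pass without the experiment as a block (limma adjusted p = 0.0823, 0.141 and 0.0734). Leaving out 1 array ended the call for Btla without the 6 h array of experiment 1 with IL-7 (0.96, limma adjusted p = 0.0565), and for Il33 without the 6 h array of experiment 2 without IL-7 (-1.27, limma adjusted p = 0.0584) or the 24 h array of experiment 1 with IL-7 (-1.35, limma adjusted p = 0.054). Edaradd then lay between 0.63 and 0.71 in the 3 fits in which it did not pass, Eno3 between -0.69 and -0.46 in 6 and S1pr1 between 0.41 and 0.74 in 7.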

How the results depend on the processing

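Without the replicate block, which pairs the arrays by experiment, 2377 genes passed in place of 3727 in the step without IL-7, 729 in place of 1819 in the step with IL-7, 998 in place of 1972 in their difference and 2611 in place of 3994 from time 0 to 6 h, while the comparison of 24 h with time 0 gave 5428 in place of 6760. For the step without IL-7 an adjusted p under 0.01 left 2274 genes and a change of at least 2-fold 358. Leaving out 1 array gave 2150 to 2756 genes without IL-7, 894 to 962 with IL-7, 1164 to 1504 in the difference, 2532 to 3621 from time 0 to 6 h and 5481 to 6239 for 24 h against time 0. The other alternatives gave 3494 (only the 4 arrays) to 4104 (10941 genes left without dim genes) for the step without IL-7, and quantile normalization moved its median over all genes by -0.02. Signs turned only at values near 0: in the step without IL-7 Fam135b was -0.0177 with the mean of all probe sets and -0.20 to 0.24 with 1 array left out, Bcl2 was -0.0057 to 0.1347, and the difference at Slc7a11 was -0.38 to 0.37. The cause was not tested. Leaving out an array leaves 1 in that group, whose spread is then taken from the other groups. Wherever an array is left out in the text, it is 1 array at a time. In the step without IL-7 the calls of 44 named genes ended without the block, among them Slc7a11, Ccnd2, Cdkn1b and Gbp8. With 2 arrays per group small changes may be missed, though some small changes of dim genes passed, such as Mir701 (-0.19, limma adjusted p = 0.0355).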

Other observations

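Signalling and immune gene lists outside the main changes were mixed, and of all genes 8.79% rose and 9.9% fell. Of 17 NF-kappaB genes 5 rose and 1 fell, with Birc3, an inhibitor of apoptosis, higher by 0.84 and Nfkbia, which encodes the inhibitor of NF-kappaB, higher by 0.51, and 2 or 3 of the 6 passed when any 1 of the 4 arrays was left out. Of 28 interferon response genes 4 rose and 4 fell, near the background, such as Zbp1, a nucleic acid sensor, by 0.65 and Ifih1, the RNA sensor MDA5, by -0.66, and 12 rose and 3 fell without the 24 h array of experiment 1. Without the block 1 rose and 2 fell, and 5 of the 28 passed without either array of experiment 2. Of 10 genes of MHC class II presentation 4 rose, among them H2-Ob (0.77) and the protease gene Ctss (0.69), or 2 without the block, without either 6 h array or without the 24 h array of experiment 2. Of 23 immediate early and NR4A genes 4 rose and 4 fell (1 and 3 without the block), with the nuclear receptor gene Nr4a1 at -1.24 after -1.68 from time 0 to 6 h, 2 steps that share the 6 h arrays, and 3 or 5 of the 8 passed when any 1 of the 4 arrays was left out. The Notch target Hes1 fell by 1.24, and 3 of 10 Notch targets fell and none rose.

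Lists of steady cell functions had small medians. Of 58 cytoplasmic ribosomal protein genes 1 rose and 5 fell, of 33 aminoacyl-tRNA synthetase genes 1 rose and 2 fell, and of 39 proteasome genes 3 fell, shares below the 8.79% of all genes that rose and the 9.9% that fell. The cytoplasmic count was 2 without the 6 h array of experiment 1 and 3 without either array of experiment 2, the synthetase count 1 without either 6 h array, and the proteasome count 0 or 1 without any 1 of the 4 arrays. Of 77 mitochondrial ribosomal protein genes 14 fell and 1 rose, or 2 and none without the block, and 5 to 7 passed with any 1 of the 4 arrays left out. Among polyamine synthesis genes Srm, spermidine synthase, fell by 2.43 from time 0 to 6 h and fell by 0.60 from 6 h to 24 h, and Odc1, ornithine decarboxylase, fell by 0.84 in the later step. Of 30 integrin and adhesion genes 3 rose, such as Icam2 (0.63), and 5 fell, such as Mpzl2 (-1.10) and Ctnnd1 (-0.80). Of 41 autophagy and lysosome genes 7 rose and 2 fell (8.79% and 9.9% of all genes), with Neu1, a lysosomal sialidase, higher by 0.84 and Bnip3, a mitophagy receptor, by 0.68.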
